A study of Mus musculus with 6 samples.

Results

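Small nucleolar RNAs (snoRNAs) of the imprinted Dlk1-Gtl2 locus were measured in small RNA libraries from bone marrow cells of mice. They were chosen by position: every snoRNA gene of GENCODE release M21 on chromosome 12 that starts between 109463336, the end of Dlk1, and 110279068, the start of Dio3 (GRCm38). The interval holds 23 such genes, and 10 of them had a read in at least 1 library, out of 443 snoRNA features and 1823 features of all kinds listed. There were 3 libraries from mice with the genotype Mat KO (KO) and 3 from wild-type (WT) mice. The series' design text describes the cells as Lin-, that is, bone marrow depleted of mature blood lineages. The sources used here do not give the deleted part of the locus, the strain or the age of the mice. They also do not say whether libraries of a genotype came from separate animals, so the spread behind each p-value may be technical.

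The Dlk1-Gtl2 locus carries protein-coding genes expressed from the paternal chromosome and non-coding RNAs expressed from the maternal one: Meg3 (also Gtl2), Rian (also Meg8) and Mirg. snoRNAs are cut from the introns of Rian, while miRNAs come from several of the transcripts. C/D box snoRNAs are short RNAs that take their name from the C box near the 5′ end and the D box near the 3′ end. With a set of core proteins they guide 2′-O-methylation of the RNA that pairs with the bases next to a D box. Many C/D snoRNAs of imprinted loci are orphans, which means that no ribosomal RNA target is known for them.

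The name Rian covers the snoRNAs only in part. Rian was annotated from 109603940 to 109661716 on the plus strand, and 13 of the 23 snoRNA genes lie within it. The other 10 lie 12.2 to 27.8 kb past its annotated end, on the same strand. Reads were found for 5 genes within Rian and for 5 downstream of it. All 5 members within Rian lie in an intron of some Rian transcripts, and 3 of them also lie in an exon of others. DQ267100, for example, is intronic in 3 of the 20 annotated Rian transcripts and exonic in 2.

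**Figure D1:**
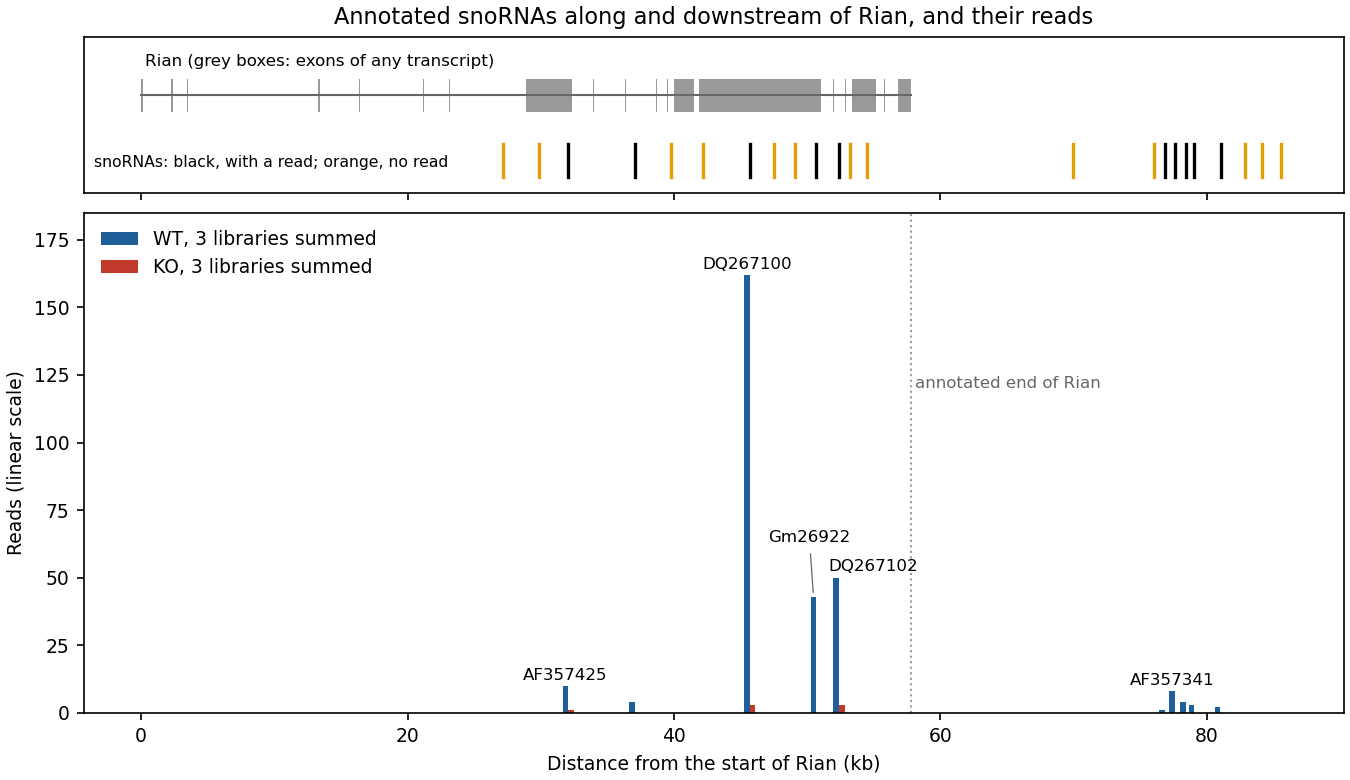
Position and reads of the 23 annotated snoRNAs of the locus. The x axis gives the distance from the start of Rian in kb. The upper track marks exons of Rian (grey) and snoRNAs with a read (black) or with none (orange), and the bars give reads summed over the 3 WT (blue) and 3 KO (red) libraries. The tallest bars are DQ267100 with 162 WT reads, DQ267102 with 50 and Gm26922 with 43, and no red bar is above 3 reads.

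The sequences of the 3 snoRNAs with most reads are shown first, with that of DQ267101, a close relative that lies between them and had no read. They are GENCODE M21 transcript sequences, written 5′ to 3′ as DNA letters, and the capitals mark the C box letters TGATGA and the D box letters CTGA.
DQ267100: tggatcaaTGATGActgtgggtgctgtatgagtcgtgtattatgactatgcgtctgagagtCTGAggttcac
DQ267101: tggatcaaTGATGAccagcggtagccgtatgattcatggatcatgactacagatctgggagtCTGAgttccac
Gm26922: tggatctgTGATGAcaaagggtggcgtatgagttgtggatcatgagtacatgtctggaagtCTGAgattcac
DQ267102: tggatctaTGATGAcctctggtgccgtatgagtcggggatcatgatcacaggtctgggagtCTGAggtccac
Gm26922 is named AF357355 (MBII-343) in RefSeq. DQ267100 and Gm26922 differ by 17 edits over 72 nt (76.4% identity), and Gm26922 and DQ267102 by 14 (80.6%). DQ267101 is closer to DQ267102, at 12 edits (83.6%), than any of the 3 snoRNAs with reads is to another. Of the 15 bases directly before the D box, where a C/D snoRNA can pair with its target, 5 differ between DQ267100 and either DQ267102 or Gm26922, and 3 differ between Gm26922 and DQ267102.

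The next set shows the most upstream member with reads and 3 related members downstream of Rian, 2 of which are nearly the same over most of their length.
AF357425: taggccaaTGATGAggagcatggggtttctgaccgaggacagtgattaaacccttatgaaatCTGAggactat
AF357341: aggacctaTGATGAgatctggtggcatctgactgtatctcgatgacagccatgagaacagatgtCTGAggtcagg
Gm23736: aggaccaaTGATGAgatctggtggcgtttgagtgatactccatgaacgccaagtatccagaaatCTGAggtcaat
Gm22981: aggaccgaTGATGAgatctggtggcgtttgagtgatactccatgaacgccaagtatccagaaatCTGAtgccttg
AF357425 is named MBII-48 in RefSeq. Gm23736 and Gm22981 differ by 6 edits over 75 nt (92.0% identity), and none of these falls in the 15 bases before the D box. Reads of one could be counted for the other, so their single counts are uncertain. AF357425 has a relative outside the locus, Gm22962 on chromosome 9 (68510163 to 68510235), at 4 edits (94.5% identity), and Gm24895, a locus gene with no read, has one on chromosome X, Gm24598 (64496584 to 64496657), at 2 edits (97.3%). Neither relative was listed with a read in any library. For the other locus snoRNAs the closest annotated snoRNA elsewhere was at most 68% identical.

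The box letters were searched in all 23 genes. The C box letters TGATGA start at base 9 in all 10 members with a read. The search took TGATGA within the first 12 bases and CTGA within the last 12, on the strand of the RNA only, and the letters do not overlap. Both were found in 8 of the 10 members with a read and in 3 of the 13 genes without one. The rate was 63.1% among 320 annotated snoRNAs of 60 to 90 nt elsewhere in the genome. Gm24899 and Gm23787 are the members with reads that lack CTGA at that place. DQ267101, Gm24895 and AF357428 have both sets of letters and no read. A run of 6 pairs (Watson-Crick or G-U) between the first and last 7 bases was found in 5 members with reads, among them the 3 shown first with reads, and in no gene without reads, where the longest run was 5. The other members with reads had 2 to 4 pairs. No rate of such runs among snoRNAs elsewhere is given here to judge this by. These are descriptions of the letters, and what they mean for the stability of the RNAs was not tested.

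Library depth and the tissue label were checked before the genotypes were compared. The libraries held 45398303 to 53299322 counts, of which 93.4% to 95.3% fell on snoRNA features. Of 11 haematopoietic marker miRNAs 10 were listed, with a summed level per library of 90.8 to 127 CPM (counts per 1e+06 counts) in KO and 56.5 to 131 CPM in WT, and Mir451a was not listed. Markers of liver, neurons, muscle and stroma summed to 1.30 to 2.84 CPM in 5 libraries and to 19.3 CPM in KO replicate 2, with 12 of 14 listed and the neuronal Mir124a-1 and Mir124a-2 not listed. In that library the muscle miRNA features Mir1a-1 and Mir133a-2 had 258 and 116 reads, against 2 to 9 and 0 to 1 reads in the others. The liver miRNA feature Mir122 had 20 and 23 reads in WT replicates 1 and 2 and at most 1 read in each other library. What part these markers have in the results was not tested, but values without KO replicate 2 are given with the tests of members. The gel selection aimed at inserts of snoRNA length, and whether reads on miRNA features come from mature or precursor RNA was not tested.

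The locus snoRNAs were rare in WT cells and rarer still in KO cells. Together the 10 members had 87, 106 and 94 reads in the WT libraries against 3, 2 and 2 in the KO libraries, each in the order of replicates 1 to 3. They made up 0.000205% of the snoRNA reads of the WT libraries. The pooled level was 40.5-fold higher in WT, and the exact 95% interval from counting ran from 19.4 to 102. Such intervals, and floors set from a few counts, cover counting error only and leave out the spread between libraries. Copies made by PCR were not told apart, so even the counting error may be larger than they show. Without DQ267100, the member with most reads, the other members were still 30.9-fold higher in WT (interval 11.8 to 115). In bulk RNA, fewer cells that express a snoRNA and less of it per cell cannot be told apart.

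Each of the 10 members had more reads in WT than in KO. For 7 of them this direction was fixed, because members without a KO read are listed only through WT reads. Pooled CPM was higher in WT for 59.6% of all listed features. For 6 members (AF357425, DQ267100, Gm26922, DQ267102, AF357341 and Gm22981) every WT library was above every KO library by CPM, a pattern found in 9.22% of all listed features and 8.78% of snoRNA features outside the interval. For each of the 6 the exact two-sided permutation test gave p = 0.1, the smallest that 3 libraries against 3 allow. Groups that do not overlap always give this value, so the test adds nothing to the pattern. Gm26922, AF357341 and Gm22981 had a read in each WT library and none in any KO library. That holds for 0.713% of all listed features and 0.231% of snoRNA features outside the interval. These shares are over features of any abundance, so they do not give the rate among features as rare as these members.

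DQ267100 (chromosome 12, 109649617 to 109649688, plus strand) was the most abundant member. It had 59, 51 and 52 reads in WT replicates 1 to 3, or 1.11, 1.12 and 1.02 CPM. The KO libraries held 2, 0 and 1 of its reads, or 0.0413, 0 and 0.0211 CPM. The WT values lie close together, with a coefficient of variation of 4.91%, below the 13.6% that counting error alone gives at this depth. The mean levels were 1.08 ± 0.05 CPM in WT and 0.0208 ± 0.0206 CPM in KO (SD, n = 3 each), which makes a pooled WT over KO ratio of 53.3 (interval 17.9 to 261). Without KO replicate 1, which had 2 of its 3 KO reads, the fold was 107, and without KO replicate 2, which had none, it was 34.6. Each WT library held over 50 of its reads and no KO library more than 2.

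DQ267102 (109656345 to 109656416) had 12, 28 and 10 reads in the WT libraries, or 0.225, 0.617 and 0.197 CPM. It had 1 read in each KO library, between 0.0193 and 0.0211 CPM. The WT libraries were uneven, with replicate 2 above the other two, and the coefficient of variation was 67.8% against 24.5% from counting. The means were 0.346 ± 0.235 CPM in WT and 0.0204 ± 0.0010 CPM in KO (SD, n = 3 each), so the pooled ratio was 16.5 (interval 5.32 to 82.5). Without WT replicate 2 it was 10.4.

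Gm26922 (109654627 to 109654698) had 6, 20 and 17 reads in the WT libraries, or 0.113, 0.441 and 0.335 CPM, and no read in any KO library. WT replicate 1, which had the lowest value, still had reads above the floor of 3 counts. The mean WT level was 0.296 ± 0.167 CPM (SD, n = 3), and its coefficient of variation of 56.6% was above the 26.4% from counting. Its WT level was 14.2 times the floor of 3 counts over the KO group, and 9.18 times that floor without KO replicate 2. With the counting error of the WT reads included, the exact 95% interval of the pooled ratio starts at 11.0. It was the only one of the 1823 listed features (0.0549%) with 10 or more WT reads and no KO read.

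AF357425 (109636012 to 109636084) had 4, 2 and 4 reads in the WT libraries and 0, 1 and 0 in the KO libraries. The groups did not overlap, but each rests on a few reads. The levels were 0.0660 ± 0.0191 and 0.00643 ± 0.01114 CPM (SD, n = 3 each), for a pooled ratio of 9.88 (interval 1.40 to 429). Its single KO read came from KO replicate 2, and without that library the WT level was 2.14 times the floor of 3 counts.

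**Figure D2:**
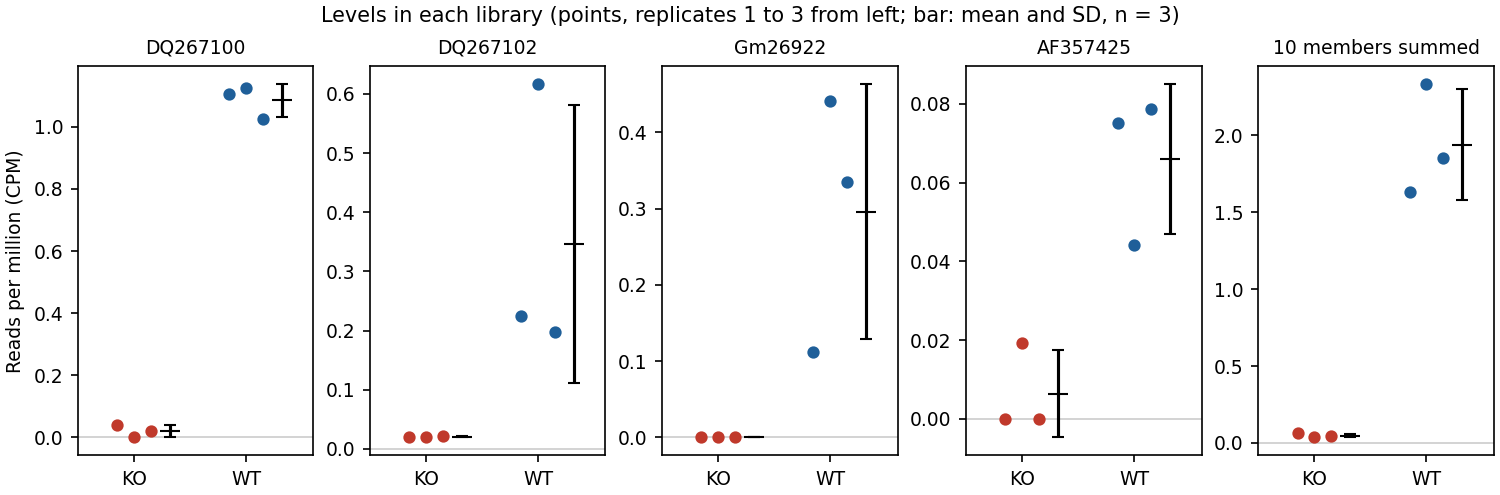
Levels of the 4 members with 10 or more WT reads, and of the 10 members summed, in each library. The y axes give CPM on linear scales that differ between panels. Points are libraries and bars are mean and SD (n = 3). In each panel the 3 WT points (blue) lie above the 3 KO points (red), and DQ267100 has the tightest WT group of the 4 single members relative to its mean, at 1.02 to 1.12 CPM.

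The test across all features was run with and without a filter on low counts, because the default filter removed most of these rare RNAs. With edgeR's default filter 1 member, DQ267100, was among the 624 features tested, and it passed only through its WT reads. A feature that passes only through the group where it is high had to differ, so its p-value adds no support. DQ267100 was lower in KO, with a log2 fold change (KO over WT) of -5.50 (SE 0.58, adjusted p = 0.0242 by edgeR), and it was the 1 feature called (0.16%). Without adjustment 4.33% of these features had p under 0.05 and were lower in KO. This call was lost without KO replicate 3 (adjusted p = 0.4 by edgeR) or WT replicate 1 (0.188), 2 (0.197) or 3 (0.215), while without KO replicate 2 it held (0.0266). With any 1 library left out, estimates on the log2 scale ranged from -6.31 to -4.89.

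With all 1823 listed features in the fit, all 10 members had lower estimates in KO and 3 of them were called lower. Only 0.274% of all features were called lower, 5 in all, and the other 2 were Mir122 and Snord15a. Among the 8 called higher were Mir133a-2, Mir133a-1, Mir1a-1 and Mir1a-2 (adjusted p = 0.00427 to 0.0299 by edgeR). Most reads of these muscle miRNA features came from KO replicate 2, so this fit can call features carried by 1 library. The log2 fold change was -5.45 for DQ267100 (SE 0.71, adjusted p = 7.6e-06 by edgeR) and -3.81 for DQ267102 (SE 0.76, adjusted p = 0.00557). For Gm26922 the fit gave -6.82 with an adjusted p of 0.00103, but with 0 KO reads the size depends on the prior count. All 3 calls held with any 1 library left out, with adjusted p from 3.8e-10 to 0.0159. The size of these p-values was unstable, and some were smaller with fewer libraries. For DQ267100 the edgeR adjusted p was 3.8e-10 without WT replicate 1 and 0.000103 without KO replicate 1. Without KO replicate 2 the adjusted p was 2.6e-08 for DQ267100, 1.4e-05 for Gm26922 and 0.000719 for DQ267102.

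The calls of Gm26922 and DQ267102 depended on which features shared the fit. With features of at least 15 reads over the 6 libraries, whatever the genotype, the log2 fold changes were -6.81 and -3.78 and neither was called (adjusted p = 0.509 and 0.458 by edgeR), while DQ267100 was called (0.0386). DESeq2 on all listed features called DQ267100 (adjusted p = 7.1e-06) and Gm26922 (0.0447) but not DQ267102 (0.363).

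The remaining members had 1 to 8 WT reads each and no KO read. AF357341 had 4, 3 and 1 reads in WT replicates 1 to 3, Gm22981 had 1, 1 and 2, Gm25856 had 0, 1 and 2, and Gm23787 had 1, 0 and 1. Gm24899 had 4 reads, all in WT replicate 3, and Gm23736 had 1 in the same library. Summed, these 6 had 6, 5 and 11 reads in the WT libraries and none in KO, and the exact 95% interval of the pooled ratio starts at 5.41. Members without a KO read are listed only through WT reads, so the choice of members raises this bound. No KO read was found for 15.5% of all listed features. None of the 6 was called in the fit of all features: AF357341 had the lowest adjusted p of the 6 (0.467), with an unadjusted p of 0.0108 by edgeR. AF357425 was not called either (adjusted p = 0.667, unadjusted 0.0242 by edgeR). Without KO replicate 2 the adjusted p was 0.796 for AF357341 and 0.434 for AF357425. Before adjustment 5 of the 10 members, these 2 and the 3 called, had p under 0.05 and were lower in KO, against 3.78% of all listed features.

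No read was counted for 13 annotated snoRNAs of the locus. Within Rian these are Gm24564, Gm23474, Gm23600, Gm24895, DQ267101, Gm23508, Gm25357 and Gm27604. Downstream they are Gm23347, AF357428, Gm25854, Gm22205 and Gm25224. RefSeq lists Gm23347 (as LOC115488054) and Gm25224 as pseudogenes. A count of 0 over the WT libraries allows up to 3 reads of 149473479, or 0.0201 CPM, about the level of Gm25856 with 0.0205 CPM. This limit covers reads that were counted. Whether reads matching several places were dropped is not known, so it may not hold for genes with a close copy such as Gm24895. RefSeq holds 3 more snoRNAs in the interval, AF357426 (MBII-49), AF357359 (MBII-426) and LOC115488061, that have no GENCODE M21 snoRNA at their place. No listed feature overlaps them, so they are not analysed here.

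Reads were concentrated in one stretch of Rian. The 6800 bases from DQ267100 to the end of DQ267102 hold 5 of the 23 genes and had 255 of the 287 WT reads (88.9%). Between those ends DQ267101 and Gm23508 had none, so the neighbour of the member with 162 WT reads had 0. The 13 genes within Rian had 81, 101 and 87 reads in WT replicates 1 to 3, and the 10 downstream had 6, 5 and 7. In the KO libraries the genes within Rian had 3, 2 and 2 reads and those downstream none. The pooled ratio of WT to KO was 38.0 within Rian (exact 95% interval 18.2 to 95.3), and downstream, with no KO read, its interval starts at 4.34. These intervals overlap, so a different size of difference in the 2 groups was not detectable at this depth.

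Grouped by sequence, with genes joined where a pair was at least 70% identical, 2 larger families appeared. The first lies within Rian and holds Gm23600, DQ267100, DQ267101, Gm26922, DQ267102, Gm25357 and Gm27604. In this family 3 of 7 genes had reads, 77, 99 and 79 in the WT libraries against 3, 1 and 2 in the KO libraries. The second lies downstream and holds AF357428, Gm23736, AF357341, Gm22981 and Gm25856. Here 4 of 5 genes had reads, 5, 5 and 6 in the WT libraries and 0 in each KO library. The family within Rian thus had more reads on fewer of its genes.

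Levels between members were compared per length. DQ267100 had 15.1 CPM per kb in WT, which placed it at rank 235 of the 443 listed snoRNA features, below their median of 22.4. DQ267102 followed at 4.81 (rank 278) and Gm26922 at 4.11 (rank 284), and these neighbours did not differ beyond their spread. AF357425 had 0.904 (rank 313) and AF357341 0.715 (rank 320), and the other members had 0.0875 to 0.360. Per length DQ267100 was thus the most abundant locus snoRNA in each WT library, since all members are 72 to 75 nt long.

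The make-up of the locus reads was compared among the WT libraries. DQ267100 had 67.8% of them in replicate 1 (exact 95% binomial interval 56.9% to 77.4%), 48.1% in replicate 2 (38.3% to 58.0%) and 55.3% in replicate 3 (44.7% to 65.6%). DQ267102 had 13.8%, 26.4% and 10.6%, and Gm26922 had 6.90%, 18.9% and 18.1%. The interval of DQ267102 in replicate 2 (18.3% to 35.9%) overlaps those of replicates 1 and 3 (7.34% to 22.9% and 5.22% to 18.7%). The order of DQ267102 and Gm26922 was thus not fixed: DQ267102 was ahead in replicates 1 and 2 and Gm26922 in replicate 3.

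**Figure D3:**
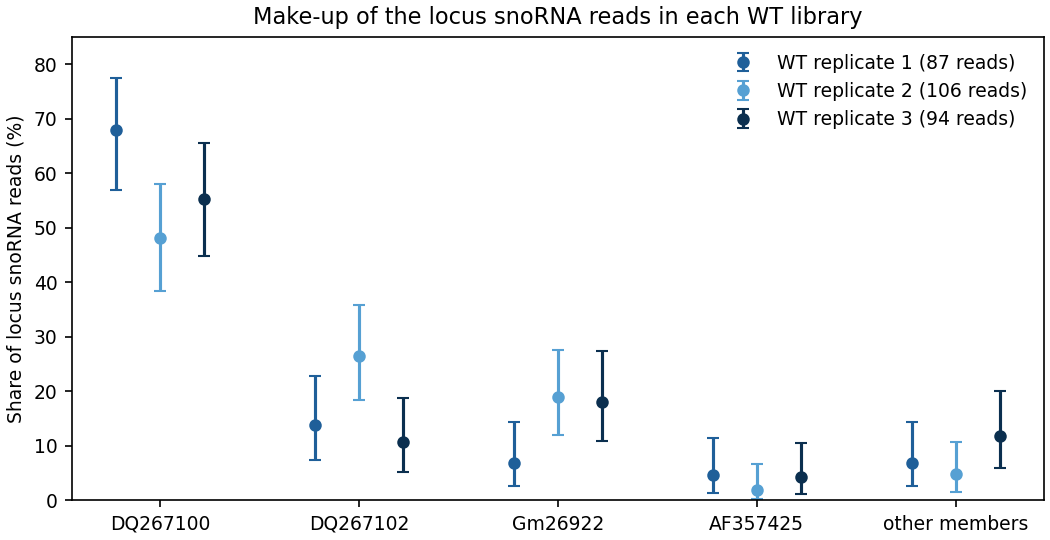
Share of the locus snoRNA reads taken by each member in the 3 WT libraries. Points are percentages of 87, 106 and 94 reads and bars are exact 95% binomial intervals. DQ267100 has 48.1% to 67.8% in each library, and the intervals of the libraries overlap for each member.

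The snoRNAs outside the locus were compared by the same pooled ratio. Of 326 snoRNA features elsewhere with 10 or more reads in the 6 libraries together, the median pooled ratio of WT to KO was 1.14, and none was above 5-fold. The highest ratios, picked by their size, were 4.69 for Gm22498 (19 WT and 4 KO reads) and 4.02 for Snord15a. Of 1006 features of any kind outside the interval with 10 or more reads, 13 were above 5-fold, led by Mir122 at 42.5-fold with 43 WT reads and 1 KO read. In the fit of all features 1 of the 433 snoRNA features outside the interval was called, and 3 of the 10 members. The median fitted log2 fold change was -3.48 for the members, -0.06 for snoRNA features outside and -0.10 for all 1823 features. The fitted medians of rare features depend on the prior count, because 7 of the 10 members, but 48 of the 433 other snoRNA features, had no KO read, and members without one are listed only through WT reads. From pooled reads, with a group's reads under 3 raised to that floor, the medians were -0.90, -0.09 and 0.02 on the log2 scale. The 0.02 is the value that a feature raised to the floor in both groups gets from the library totals.

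**Figure D4:**
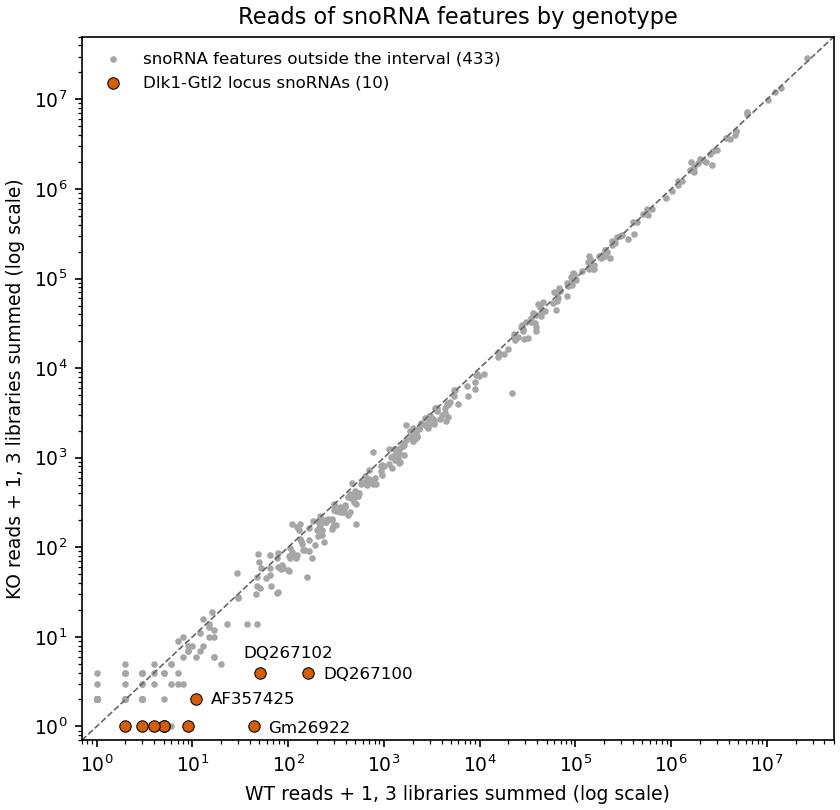
KO against WT reads of all listed snoRNA features. Both axes give reads summed over 3 libraries, plus 1, on log scales, and the dashed line marks equal reads. Grey points are the 433 features outside the interval and orange points the 10 locus snoRNAs. All 10 lie below the line, and DQ267100, DQ267102 and Gm26922 lie farther below it than any grey point.

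The same chromosome and another imprinted cluster served as comparisons. Elsewhere on chromosome 12, 15 snoRNA features were listed and none was called. Their summed level was 662 ± 47 CPM in WT and 643 ± 47 CPM in KO (SD, n = 3 each), a difference smaller than either SD. That sum was mostly Gm25970, with 83576 of 99350 WT reads and 82753 of 94784 KO reads. Of the 15 features, 11 had lower estimates in KO and 4 higher. With reads raised to the floor, their median log2 fold change was -0.36, against -0.09 for all snoRNA features outside the interval. Snora28, the 1 listed past the interval's end (111540941 to 111541067), had 932, 641 and 651 reads in the WT libraries and 512, 523 and 682 in KO. In the Snurf-Snrpn interval of chromosome 7, whose snoRNAs are expressed from the paternal chromosome, 45 snoRNA features were listed and none was called. They had 44, 27 and 55 reads in the WT libraries and 22, 35 and 32 in KO, and the groups overlapped. Of the 45, 24 had no KO read and 29 had lower estimates in KO. Their median fitted log2 fold change was -1.82, and 0.02 with reads raised to the floor. The value 0.02 is what a feature raised to the floor in both groups gets, so it cannot show a difference or its absence. Snord64 had 25, 17 and 22 reads in WT and 14, 19 and 24 in KO (log2 fold change -0.03 with an SE of 0.50, edgeR adjusted p = 0.979).

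Most miRNA features of the locus had estimates of the opposite sign. Of 29 listed, 27 had higher estimates in KO, and 3 were called higher and none lower, while 823 of all 1823 features had higher estimates and 0.439% were called higher. These fitted estimates depend on the prior count where reads are few. With reads raised to the floor, the median log2 fold change was 0.02 for the locus miRNA features and for all features. A feature raised to the floor in both groups gets this value from the library totals alone. These medians therefore cannot show whether the locus miRNA features shifted. Their summed levels were 0.392, 2.10 and 4.65 CPM in KO replicates 1, 2 and 3 and 0.0375, 0.793 and 0.394 CPM in the WT ones. The groups thus overlapped, with KO replicate 3 highest and WT replicate 1 lowest. All 10 listed haematopoietic marker miRNA features also had higher estimates in KO (log2 fold changes of 0.15 to 1.78, none called), and their part in this difference was not tested. Mir370 (109618258 to 109618336), the 1 miRNA feature listed within Rian, had 4, 9 and 55 reads in the KO libraries against 0, 5 and 1 in the WT ones. Its log2 fold change was 3.48 with an SE of 0.83 (edgeR adjusted p = 0.0299). Its groups overlapped, and KO replicate 3 held most of its reads. Without that library the call was lost (log2 fold change 1.78, edgeR adjusted p = 0.730), as it was with features of at least 15 reads (0.569) and with DESeq2 (0.714).

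The features whose levels followed the summed locus snoRNAs most closely over the 6 libraries differed far less in size. Among 564 features outside the interval with a mean of at least 20 counts, the highest Pearson correlations of log2(CPM + 0.01) were 0.95 for Gm22579 (a snoRNA feature on chromosome 9), 0.94 for the 45S pre-rRNA, and 0.93 for Gm24411 and Snora62. Gm22388, a miscellaneous RNA feature, had 0.92. These are descriptions over 6 libraries of 2 genotypes, chosen as the highest of many, and the points share the libraries' depth. Gm22579 had 1.00 ± 0.09 CPM in WT and 0.625 ± 0.061 CPM in KO, and Snora62 had 5.50 ± 0.30 and 3.46 ± 0.56 CPM (SD, n = 3 each). None of the 5 was called (adjusted p = 0.542 to 0.710 by edgeR with the default filter), and their log2 fold changes were -1.09 to -0.36, against -5.50 for DQ267100 in the same fit.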

How the data were processed

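Small RNA libraries from bone marrow cells were size-selected on a gel for inserts of snoRNA length and sequenced on a NovaSeq, per the labels' protocols. Trimmomatic 0.38, Bowtie2 2.3.4.1 and the build GRCm38 are named in the submitters' processing notes. The sources used here do not give the counting tool, its strand setting or its handling of reads that match several places. Each library has 1 deposited table of raw read counts. A feature without a read in a library is left out of its table by the authors and was set to 0. Features are named by position, and 1819 of 1823 matched a GENCODE M21 gene with the same start and end. The others are the 45S pre-rRNA and 3 features on unplaced scaffolds.

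Groups and replicate numbers were taken from the titles. The test was that of edgeR 4.0.16 (quasi-likelihood, TMM, two-sided, Benjamini-Hochberg over all features in the fit, threshold 0.05) with the default filter (minimum count 10, minimum total 15) and again on all listed features. Dividing the absolute log2 estimate by the root of its F statistic gave the SE. DESeq2 1.42.0, other scalings, another filter, a replicate term and leaving out each library were alternatives. CPM are counts scaled to a library total of 1e+06, and the floor is 3 counts. Folds of pooled reads have exact conditional 95% intervals. Replicate pairs of a genotype differed by more than sampling noise (chi-square per degree of freedom 530 to 3308). The code was tested on simulated data.

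Members with 10 or more WT reads are given in full, those with fewer by their counts, and those with no read by name. Of other lists, at most the 5 features with most WT reads are named, and the 5 features most alike by Pearson correlation. The members, the lists and these rules were chosen with earlier results of these data known. Sequences are GENCODE M21 transcripts. Of the 23 annotated genes 18 matched a RefSeq gene by an overlap of at least 80%, 16 of them snoRNAs and 2 pseudogenes.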

Additional observations from a re-analysis of the deposited data

How the results depend on the processing

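The pooled WT over KO fold of the 10 locus snoRNAs kept its direction under each alternative run: leaving out 1 library at a time gave 36.7 to 47.6, and was 30.9 without DQ267100. The number of locus snoRNAs called in the fit of all listed features was 3 under each alternative run but 2: it was 1 with a summed count of at least 15, and 2 with DESeq2. It was 3 throughout with any 1 library left out (lowest 3, highest 3). Counts over all features moved more. With the default filter 1 feature was called, and 0 to 1 with a library left out. Without a filter 13 features were called, 1 with a summed count of at least 15, 23 with RLE size factors, 21 with library totals alone, 2 with DESeq2, and 13 to 51 with a library left out, the highest without KO replicate 1. The cause of these shifts was not tested.

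The replicate numbers come from titles that do not say what they share. Deviations of same-numbered KO and WT libraries correlated at -0.13, 0.40 and -0.36 over 624 features, so the numbers were not taken as pairs, and not every library correlated best with its own number. With the replicate block 0 features and 0 locus snoRNAs were called with the default filter (DQ267100 adjusted p = 0.344 by edgeR), and 7 features and 3 locus snoRNAs with no filter. The call of Mir370 was also lost with the replicate block (log2 fold change 3.19, adjusted p = 0.207 by edgeR).

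Depth limits the single members. A snoRNA with under 10 WT reads was within a few counts of the floor, and an absence of reads does not show absence of the RNA.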

Other observations

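The 45S pre-rRNA is the transcript from which ribosomal RNAs are cut, and it was not called between the genotypes. It made up 4.88%, 5.10% and 4.59% of the counts in WT replicates 1 to 3 and 3.70%, 3.26% and 3.88% in KO replicates 1 to 3, so the groups did not overlap. Every WT library was above every KO library for 9.22% of all listed features. The log2 fold change was -0.36 (SE 0.08, adjusted p = 0.542 by edgeR with the default filter), and by an exact two-sided permutation test p was 0.1, the lowest that 3 against 3 libraries can give.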
